A study of Homo sapiens with 8 samples.

Results

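Toll-like receptors are the membrane sensors with which monocytes detect microbial products, and 10 genes of this system were followed here in MonoMac 6, an established human cell line derived from acute monocytic leukaemia. The genes were chosen by symbol: the receptors TLR1, TLR2, TLR4 and TLR6, the accessory proteins CD14 and LY96, and the proximal signalling proteins MYD88, IRAK1, IRAK4 and TOLLIP. All 10 were present among the 11530 genes of the deposited table. The APRIL group (4 libraries) received human APRIL, the TNF family cytokine encoded by TNFSF13, at 100 ng/mL for 24 h, and the Control group (4 libraries) did not. Both groups had unnamed baseline cytokines in the medium, per the series text, and serum is stated to be absent for the treated cells only, so an effect of APRIL and of serum withdrawal cannot be told apart. The columns of the table carry the group and no replicate number, so each library is named by its group and its place in the table (APRIL column 1, Control column 1 and so on). Nothing says that the libraries came from separate cultures, so p-values reflect only how far these libraries differ, and that spread may be technical.

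Each Toll-like receptor has an outer part that binds ligand and an inner TIR domain that recruits adaptors. TLR2 works in pairs with TLR1 or TLR6 on bacterial lipopeptides. TLR4 senses lipopolysaccharide together with LY96 (also called MD-2), after CD14 has handed the lipid over. The adaptor MYD88 then joins the TIR domain to the kinase IRAK4, IRAK4 activates IRAK1, and TOLLIP binds the receptors and IRAK1 and restrains the signal.

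The files hold log2 expression values that the authors scaled between libraries, and each change below is the APRIL mean minus the Control mean of these log2 values. It is given with its standard error from limma, a linear model fitted to all genes at once (4 libraries per group). The gene-specific divisor in these values did not follow transcript length (Spearman's rho with the longest transcript of -0.004 over 10666 genes), so levels were not compared between genes. Of 11257 tested genes 0 passed limma's adjusted p threshold of 0.05 (0.0%), while 1344 genes (11.9%) had an unadjusted p under 0.05. The recovered depth was 941178 to 5349682 reads per library, lowest in APRIL column 3. Of 15 monocytic and myeloid markers 13 were in the table, including CD33 and the transcription factor SPI1, and 10 of the 13 changes were positive (median 0.16). ELANE, neutrophil elastase, was at +0.73 (unadjusted p = 0.0145, limma adjusted p = 0.3999). It was at +0.14 once trends with GC content and transcript length were taken out. The Fc receptor FCGR2A was at +0.29 (unadjusted p = 0.0462, limma adjusted p = 0.3999). Both had every APRIL library above every Control library, as did 3.62% of all tested genes. For FCGR2A the gap was small, 5.8497 in APRIL column 4 against 5.8488 in Control column 4. The 3 negative changes were ITGAX at -0.26, LYZ at -0.14 and CSF1R at -0.13. Of 10 T cell and NK cell markers 2 were in the table, without any CD3 chain. Of these 2, NKG7 was at +0.46, or +0.16 without APRIL column 3 and +0.03 with those trends taken out. The other, CD8A, was at -0.0034. The part of these markers in the results was not tested. Of 8 B cell and plasma cell markers 6 were in it, 5 with positive changes, at a median of 0.03. No erythroid, platelet, epithelial, endothelial or fibroblast marker was in it.

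None of the 10 members passed the adjusted threshold in limma. Of the 10 changes 5 were positive and 5 negative, with a median of -0.0027, against a median of -0.005 over all tested genes. TLR4 and TLR6 stood lower and had an unadjusted p under 0.05, and TOLLIP was the only member whose groups did not overlap, with all APRIL libraries above all Control libraries. The share of members with an unadjusted p under 0.05 was 2 of 10, against 11.9% of all tested genes. For a lower level alone it was 2 of 10 against 5.69%, and for a higher level 0 of 10 against 6.25%. Groups did not overlap for 1 of 10 members, against 7.81% of all tested genes in either direction. With so few members these shares were not tested against each other.

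**Figure D1:**
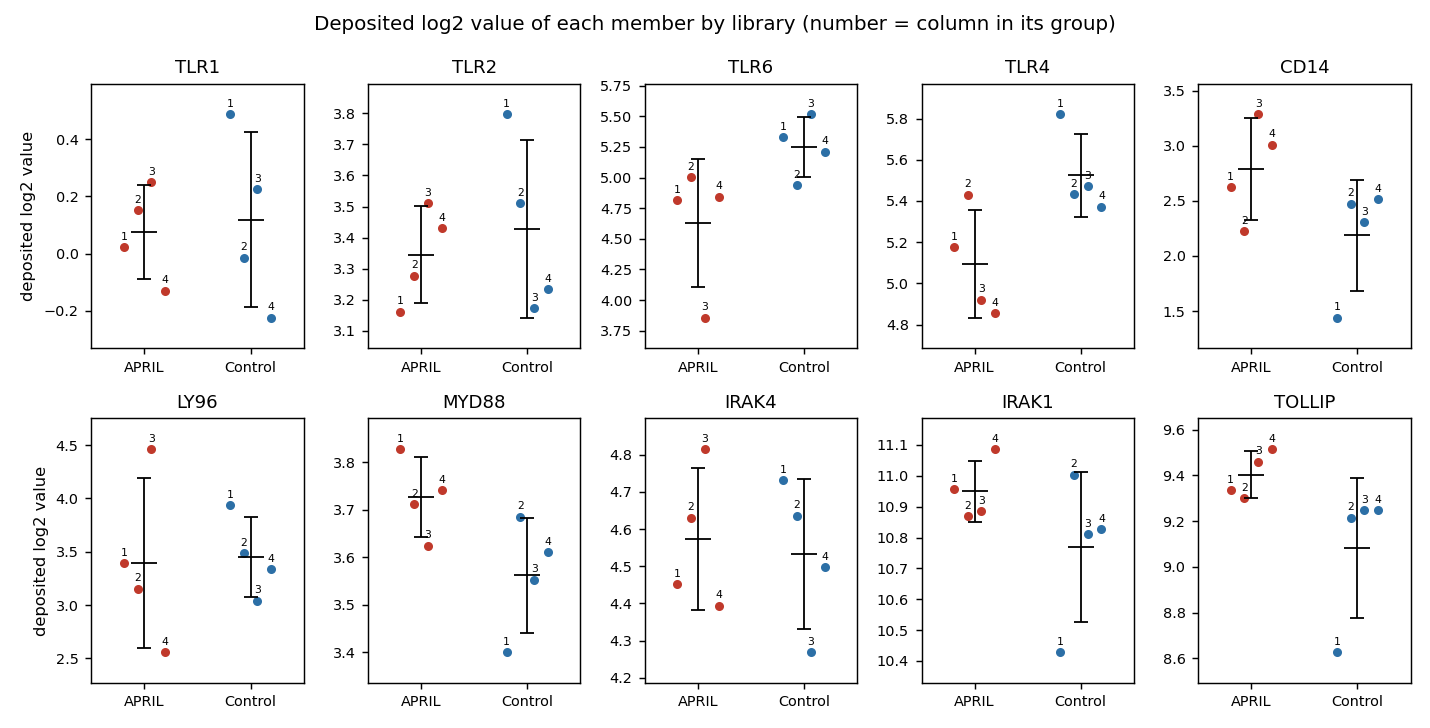
Deposited log2 value (vertical axis, own range for each gene) of the 10 members in APRIL libraries (red, left) and Control libraries (blue, right), with the column number over each point and the mean and SD (n = 4) in black. The groups overlap in every panel except TOLLIP, where the lowest APRIL value is 9.30 and the highest Control value 9.25.

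TLR1 and TLR6 are neighbours on chromosome 4 with closely related sequences, which matters for how their reads could be assigned. In GENCODE 29 transcripts (GRCh38) the longest run of bases common to both was 218 bases and lay inside the coding sequence of each, at bases 1379 to 1596 in TLR1 and 1394 to 1611 in TLR6. It is shown because a read from within it cannot be given to either gene by its sequence.

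TLR1 and TLR6 shared run: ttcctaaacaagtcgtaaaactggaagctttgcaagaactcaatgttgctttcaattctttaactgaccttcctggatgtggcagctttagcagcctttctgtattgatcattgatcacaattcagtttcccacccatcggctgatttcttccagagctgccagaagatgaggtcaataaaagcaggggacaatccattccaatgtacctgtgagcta

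Of all windows of 50 bases in the coding sequence, 10.29% of those of TLR1 occur in TLR6 and 10.16% of those of TLR6 occur in TLR1. For windows of 100 bases these shares were 5.26% and 5.19%. How the authors' counting treated such reads is not given in the sources used here, so the values of both genes are uncertain to that extent.

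TLR6, the partner of TLR2 for diacylated lipopeptides, had the most negative change of the 10 members. Its log2 values were 4.82, 5.01, 3.86 and 4.85 in APRIL columns 1 to 4, against 5.33, 4.94, 5.52 and 5.21 in Control columns 1 to 4. APRIL column 3 was far below the other libraries, and APRIL column 2 lay just above Control column 2, so the groups overlapped. The change was -0.62 ± 0.25 (95% interval -1.17 to -0.07, unadjusted p = 0.0317, limma adjusted p = 0.3999). The reads behind it were 29, 63, 4 and 33 in APRIL columns and 30, 15, 31 and 40 in Control columns. The 4 reads of APRIL column 3 carry an exact 95% Poisson interval of 1.09 to 10.24 reads, for counting error only. Counting alone would give the change a standard error of 0.24, close to the 0.25 of the fit. Without APRIL column 3 the change was -0.36.

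TLR1, the partner of TLR2 for triacylated lipopeptides, showed no such difference. It had log2 values of 0.02, 0.15, 0.25 and -0.13 in APRIL libraries, against 0.49, -0.01, 0.23 and -0.22 in Control libraries, and the Control range enclosed all APRIL values. The change was -0.04 ± 0.22, with an interval of -0.54 to 0.45. With 8 to 50 reads per library, a change within that interval was not detectable at this depth.

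TLR2, the common partner of both, had log2 values of 3.16, 3.28, 3.51 and 3.43 in APRIL libraries, against 3.80, 3.51, 3.17 and 3.23 in Control libraries. APRIL values lay within the Control range apart from APRIL column 1, which was just below it. The change was -0.08 ± 0.18, with an interval of -0.48 to 0.31. TLR2 was the best covered of the 4 receptors, with 102 to 554 reads per library, and counting alone would give a standard error of 0.07 against 0.18 in the fit.

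TLR4, the lipopolysaccharide receptor, stood lower with APRIL in every library except APRIL column 2. Its log2 values were 5.18, 5.43, 4.92 and 4.86 in APRIL libraries, against 5.82, 5.43, 5.47 and 5.37 in Control libraries. APRIL column 2 (5.4303) lay between Control column 4 (5.3721) and Control column 2 (5.4329), so the groups overlapped. The change was -0.43 ± 0.17, or 0.743-fold (interval -0.80 to -0.06, unadjusted p = 0.0283, limma adjusted p = 0.3999). In the authors' deposited table the p-value for TLR4 is 0.0411 and the fold of APRIL over Control 0.743, while for TLR6 the p-value there is 0.0753. Behind these values were 82, 185, 20 and 73 reads in APRIL columns and 93, 47, 66 and 98 in Control columns. On these reads voom gave -0.38, with an unadjusted p of 0.05 that did not pass. Without APRIL column 3 and Control column 1 together the change was -0.27.

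CD14, the glycolipid-anchored protein that hands lipopolysaccharide to TLR4, had the most positive change of the 10 members and did not pass. Its log2 values were 2.63, 2.23, 3.29 and 3.01 in APRIL libraries, against 1.44, 2.48, 2.31 and 2.52 in Control libraries. The 3 highest values were APRIL libraries and the lowest was Control column 1, but APRIL column 2 was below 3 of the Control libraries. The change was +0.60 ± 0.30 (interval -0.06 to 1.26, unadjusted p = 0.0696, limma adjusted p = 0.4003). Reads were 86, 123, 40 and 125 in APRIL columns and 27, 37, 45 and 83 in Control columns. Without Control column 1 the change was +0.35, and without that library and APRIL column 3 it was +0.19.

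LY96, the secreted subunit that holds the lipid in the TLR4 complex, had 9 to 29 reads per library. Its median of 14 reads was the lowest of the 9 members whose reads were recovered. LY96 had log2 values of 3.40, 3.15, 4.46 and 2.56 in APRIL libraries, against 3.94, 3.49, 3.04 and 3.34 in Control libraries. The highest and the lowest value were both in the APRIL group, in columns 3 and 4. The change was -0.06 ± 0.36, with an interval of -0.86 to 0.75 that holds changes in either direction.

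**Figure D2:**
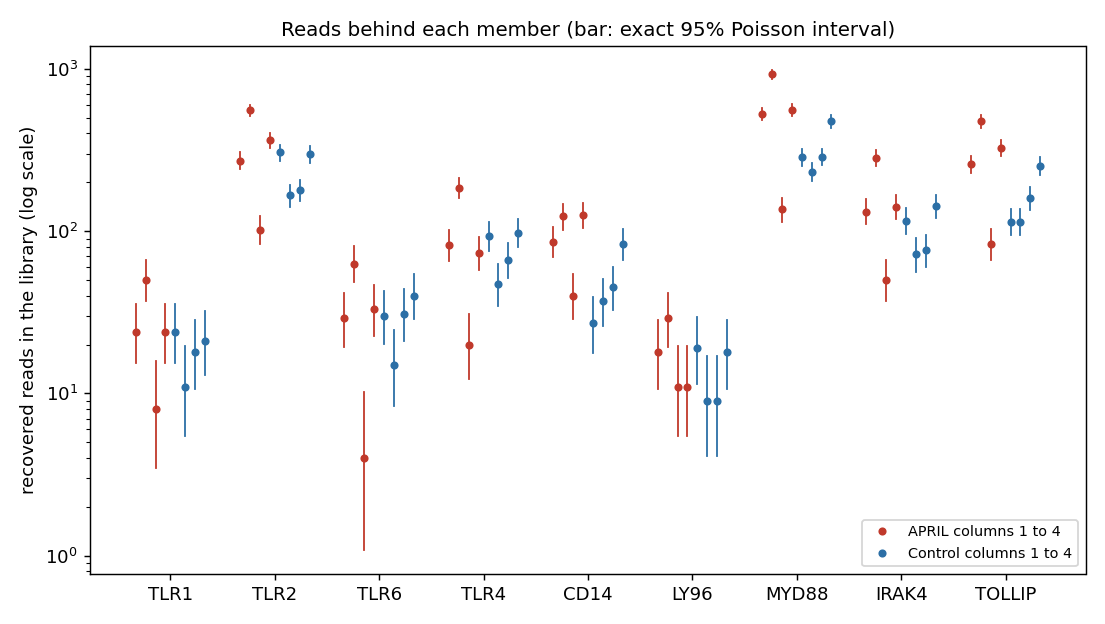
Whole reads recovered for 9 members (horizontal axis) in APRIL columns 1 to 4 (red) and then Control columns 1 to 4 (blue), on a log scale, with exact 95% Poisson intervals as bars. TLR1, TLR6 and LY96 rest on 4 to 63 reads per library, while MYD88 has 136 to 922, and the reads follow the depth of each library, so that groups cannot be compared on this axis.

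MYD88, the adaptor that these receptors share, varied little. Its log2 values were 3.83, 3.71, 3.62 and 3.74 in APRIL libraries, against 3.40, 3.69, 3.55 and 3.61 in Control libraries. Of the APRIL libraries 3 lay above all Control libraries, and APRIL column 3 lay below Control column 2 only. The change was +0.16 ± 0.13 (interval -0.14 to 0.46, limma adjusted p = 0.5192). With 2143 reads in the APRIL group and 1278 in the Control group it was the best covered of the 9 members whose reads were recovered.

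IRAK4, the kinase that MYD88 recruits first, had log2 values of 4.45, 4.63, 4.82 and 4.39 in APRIL libraries, against 4.73, 4.64, 4.27 and 4.50 in Control libraries. The groups were interleaved, and the change was +0.04 ± 0.16, with an interval of -0.31 to 0.38.

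IRAK1, the kinase that IRAK4 activates, had log2 values of 10.956, 10.869, 10.885 and 11.087 in APRIL libraries, against 10.428, 11.004, 10.812 and 10.828 in Control libraries. Control column 2 lay above 3 of the APRIL libraries and Control column 1 stood below every other library. The change was +0.18 ± 0.13, with an interval of -0.12 to 0.48, and it was +0.07 without Control column 1. Whole reads could not be recovered for IRAK1, so the depth behind its values is unknown.

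TOLLIP, the inhibitor that binds IRAK1, had log2 values of 9.34, 9.30, 9.46 and 9.52 in APRIL libraries, against 8.63, 9.22, 9.25 and 9.25 in Control libraries. All 4 APRIL values lay above all 4 Control values, as they did for 3.62% of all tested genes. The change was +0.32 ± 0.16 (interval -0.03 to 0.66, unadjusted p = 0.0667, limma adjusted p = 0.3999), or 1.25-fold. The gap between the groups, 9.3015 in APRIL column 2 against 9.249 in Control column 4, was small beside the Control SD of 0.31. Reads were 258, 475, 83 and 325 in APRIL columns and 114, 114, 159 and 253 in Control columns. Without Control column 1 the change was +0.17.

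**Figure D3:**
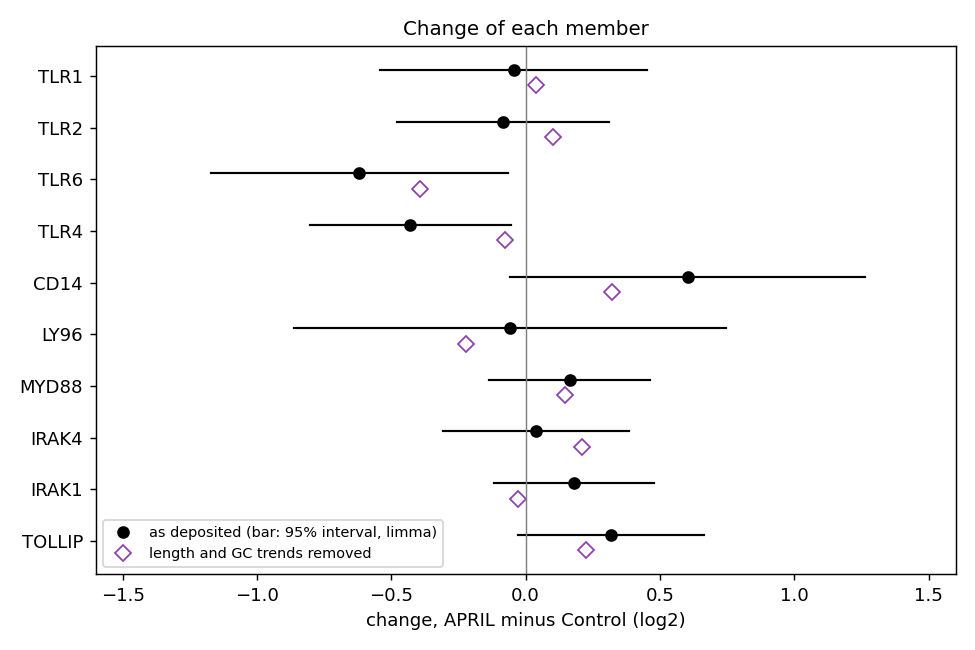
Change of each member (horizontal axis, APRIL minus Control, log2) as deposited, with its 95% interval from limma (black), and after the trends with transcript length and GC content were taken out of every library (open diamonds). The intervals of TLR4 and TLR6 alone do not reach 0, and TLR4 moves to -0.08 when the trends are removed.

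Across 10791 tested genes (genes are not independent of each other), the change went down with the length of the longest transcript (Spearman's rho = -0.54) and up with its GC content (rho = 0.51). The members lay at different places on these axes. TLR4 has a longest transcript of 12853 bases (longer than 98.4% of genes) with 39.2% GC, and TLR6 one of 5880 bases with 42.8% GC. CD14 has one of 1886 bases with 58.0% GC, and TOLLIP one of 3666 bases with 57.5% GC. IRAK1 has the highest GC content of the members, 63.0%, and LY96 the shortest transcript, 607 bases.

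After the trends with length and GC content were taken out of every library, the changes drew closer to 0 for the members with the largest values. TLR4 was then at -0.08 ± 0.10, TLR6 at -0.39 ± 0.19, CD14 at +0.32 ± 0.20, TOLLIP at +0.22 ± 0.10 and IRAK1 at -0.03 ± 0.05 (limma). LY96, at -0.22 ± 0.22, and IRAK4, at +0.21 ± 0.15, moved away from 0. TLR2 changed sign, from -0.08 to +0.10, as did TLR1, from -0.04 to +0.04. No member then had an unadjusted p under 0.05, the smallest being 0.0501 for TOLLIP. TOLLIP still had every APRIL library above every Control library, and so now had MYD88 at +0.15 ± 0.10. With the transcript of median length in place of the longest, TLR4 was at -0.18, TLR6 at -0.46, CD14 at +0.44 and MYD88 at -0.0098. Since the trends and the groups go together, removing the trends can also remove differences between the groups, and their part in the changes was not otherwise tested.

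**Figure D4:**
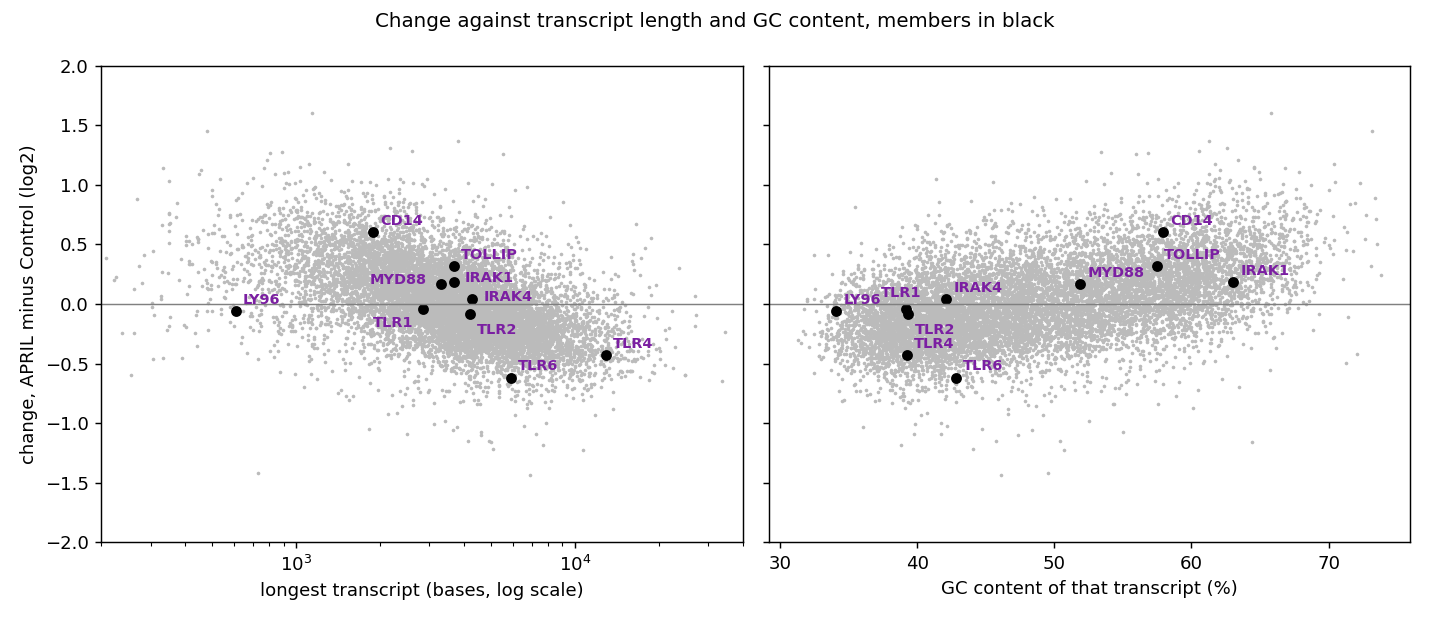
Change of each tested gene (vertical axis, APRIL minus Control, log2) against the length of its longest transcript (left, bases on a log scale) and the GC content of that transcript (right, percent), with the 10 members in black and all other genes in grey. Over all genes the change is lower at greater length and higher at greater GC content, with TLR4 and TLR6 among the longer and CD14, TOLLIP and IRAK1 among the GC-richer genes, and 17 points lie outside the axis limits.

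Control column 1 was an extreme for more members than any other library. Control column 1 was the highest library for TLR1, TLR2 and TLR4 and the lowest for CD14, MYD88, IRAK1 and TOLLIP. APRIL column 3, the shallowest library, was the highest for CD14, LY96 and IRAK4 and the lowest for TLR6. Among all tested genes APRIL column 3 was the highest library for 33.6% and the lowest for 32.9%, and Control column 1 for 26.3% and 25.7%. Depth and library were not tested as a part of these extremes.

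Across the 8 libraries some members moved together and others in opposite directions. This is given as a description without a test, since the points share library, depth and base composition. The pairs below are a selection from all pairs of members. Pearson's r between TLR4 and CD14 was -0.95 as deposited and -0.29 with the length and GC trends removed. Between TLR4 and TOLLIP it was -0.89 and -0.07, and between IRAK1 and TOLLIP 0.91 and -0.40. Between CD14 and TOLLIP it was 0.92 and 0.89, and between TLR6 and IRAK4 -0.56 and -0.96.

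The promoters of the 3 members with the largest changes are shown because those changes, none of which passed the adjusted threshold, run in opposite directions for TLR4 and its partner CD14. They are RefSeq windows (GRCh38.p14) from 250 bases before to 50 bases after the start, printed in the direction of the gene. Capitals mark GAGGAA, a core bound by SPI1 (PU.1), and its reverse complement TTCCTC.

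TLR4 promoter, chr9:117704153-117704452, plus strand: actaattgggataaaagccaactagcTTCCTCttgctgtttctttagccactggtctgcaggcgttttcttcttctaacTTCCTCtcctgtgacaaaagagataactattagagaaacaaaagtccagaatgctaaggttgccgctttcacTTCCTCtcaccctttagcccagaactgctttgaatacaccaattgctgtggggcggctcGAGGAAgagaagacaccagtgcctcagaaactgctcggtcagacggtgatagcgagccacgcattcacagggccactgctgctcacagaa
TLR6 promoter, chr4:38856768-38857067, minus strand: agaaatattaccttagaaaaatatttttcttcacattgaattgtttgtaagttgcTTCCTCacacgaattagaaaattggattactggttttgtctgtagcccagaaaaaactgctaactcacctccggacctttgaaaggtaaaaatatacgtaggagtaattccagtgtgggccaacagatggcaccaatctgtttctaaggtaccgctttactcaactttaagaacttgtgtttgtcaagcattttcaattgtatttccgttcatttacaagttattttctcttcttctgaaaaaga
CD14 promoter, chr5:140633126-140633425, minus strand: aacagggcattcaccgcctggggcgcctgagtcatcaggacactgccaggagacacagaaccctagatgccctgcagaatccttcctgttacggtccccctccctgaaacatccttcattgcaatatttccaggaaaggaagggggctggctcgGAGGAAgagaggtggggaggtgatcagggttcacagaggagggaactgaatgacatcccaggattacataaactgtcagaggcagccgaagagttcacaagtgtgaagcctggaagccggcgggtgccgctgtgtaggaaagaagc

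The TLR4 window held GAGGAA 1 time and TTCCTC 3 times, the TLR6 window TTCCTC 1 time and the CD14 window GAGGAA 1 time. Among other members, GAGGAA also occurred 1 time in the MYD88 window and 1 time in a TOLLIP window. Another TOLLIP window and those of TLR2, IRAK1 and IRAK4 held neither. Windows of TLR1 and LY96 were not examined. GAGGAA on either strand occurred in 9781 of 35116 such windows (27.9%). The TLR4 and CD14 windows shared the run GAGGAAGAGA, which starts 40 bases before the start of TLR4 and 96 bases before that of CD14. How often other windows share a run of this length was not counted. GC content was 48.3% in the TLR4 window, 34.7% in that of TLR6 and 55.7% in that of CD14. A match in these letters is a description and does not show binding.

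The rest of the pathway was read from 9 lists of 115 symbols for 114 genes (IL8 and CXCL8 name the same gene), of which 85 were tested. None of the 85 passed limma's adjusted threshold. At an unadjusted p under 0.05 there were 5 higher and 5 lower genes (11.8%), against 11.9% of all tested genes. The median change of the 85 genes was 0.04, against -0.005 over all tested genes, and 45 changes were positive and 40 negative. All APRIL values lay above all Control values for 5 of the 85, against 3.62% of all tested genes. All APRIL values lay below all Control values for 4 of the 85, against 4.19%. IKBKG, MAP2K4 and S100A9 were among those above. Those below were IRAK2, TAB2, CYLD and IL1RAP.

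**Figure D5:**
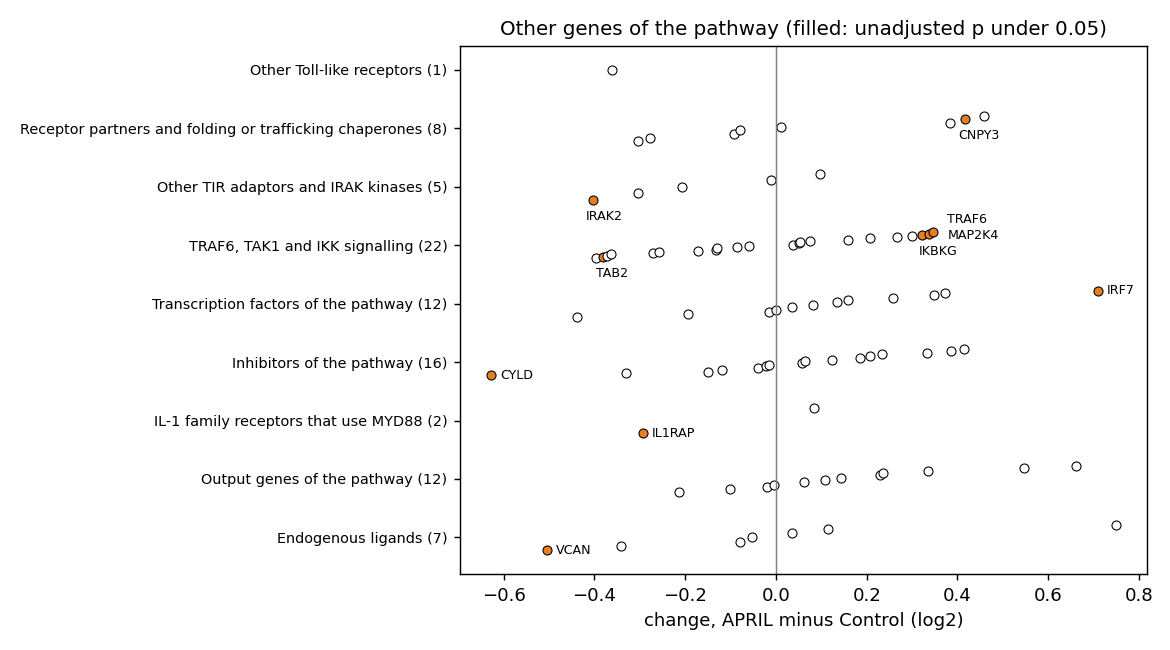
Change of each tested pathway gene (horizontal axis, APRIL minus Control, log2) in the 9 lists (rows, number of tested genes in brackets), filled and named where the unadjusted limma p is under 0.05. The 5 filled points above 0 and the 5 below it lie in several lists, and points are spread vertically for legibility only.

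Upstream, the receptors' other partners gave little. Of 7 other Toll-like receptor genes only CD180, a TLR4 relative that dampens lipopolysaccharide signals, was in the table, at -0.36 ± 0.23 (-0.19 without APRIL column 4, -0.17 with the trends removed). Of 8 tested partners and chaperones 1 had an unadjusted p under 0.05, against 11.9% of all tested genes. It was CNPY3, which helps to fold several Toll-like receptors, at +0.42 ± 0.19 (+0.24 without APRIL column 3, +0.08 with the trends removed). LY86, the partner of CD180, was at +0.46 ± 0.31, but at +0.11 without APRIL column 3 and at +0.23 with the trends removed.

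Among the 5 tested TIR adaptors and IRAK kinases the median change was -0.21, against -0.005 over all tested genes. The median of these 5 was -0.06 with the trends removed. Of the 5 changes 4 were negative, 1 of them at only -0.01. IRAK2, a kinase of the same complex as IRAK1 and IRAK4, had log2 values of 2.12, 2.22, 1.87 and 2.06 in APRIL libraries, against 2.29, 2.62, 2.57 and 2.42 in Control libraries. All APRIL values lay below all Control values, as for 4.19% of all tested genes, and the change was -0.40 ± 0.16 (unadjusted p = 0.0309, limma adjusted p = 0.3999). It was -0.41 with the trends removed. IRAK3, which restrains the complex in monocytes, was at -0.30 ± 0.15, and at -0.01 with the trends removed.

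Of the 22 genes of TRAF6, TAK1 and IKK signalling 3 stood higher and 1 lower at an unadjusted p under 0.05, with a median of -0.01. Of all tested genes 6.25% stood higher and 5.69% lower at that threshold. TRAF6, the ubiquitin ligase downstream of IRAK1, had log2 values of 6.63, 6.33, 6.22 and 6.36 in APRIL libraries, against 6.29, 5.98, 6.05 and 5.84 in Control libraries. APRIL column 3 lay below Control column 1, so the groups overlapped. The change was +0.35 ± 0.14 (unadjusted p = 0.0368 in limma), or +0.53 with the trends removed, on 13 to 92 reads per library. IKBKG, the regulatory subunit of the IKK complex, was at +0.32 ± 0.14 (-0.01 with the trends removed). MAP2K4, a kinase upstream of JNK, was at +0.34 ± 0.15 (+0.49 with the trends removed) on 10 to 66 reads per library. TAB2, which links TRAF6 to TAK1, was at -0.38 ± 0.14 (-0.18 with the trends removed), and RIPK1 at -0.40 ± 0.24 (-0.21 without APRIL column 3).

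Further down, the 12 transcription factors had a median of 0.11 and the 16 tested inhibitors one of 0.06, which was -0.07 with the trends removed. IRF7, an interferon regulatory factor that MYD88 can engage, was at +0.71 ± 0.26 with an unadjusted p of 0.0207 in limma (+0.26 with the trends removed), and its groups overlapped. REL, an NF-kB subunit, was at -0.44 ± 0.38, but at -0.10 without Control column 1 and at -0.09 with the trends removed. CYLD, a deubiquitinase that acts against TRAF6 signalling, was at -0.63 ± 0.24 (unadjusted p = 0.0259 in limma; -0.32 with the trends removed), or -0.39 without APRIL column 3. SOCS1, a feedback inhibitor of cytokine signalling, was at +0.41 ± 0.30, at +0.21 without APRIL column 3 and at -0.12 with the trends removed. IL1RAP, the shared chain of IL-1 family receptors that also signal through MYD88, was at -0.29 ± 0.12 (-0.07 with the trends removed), and IL1RN, the secreted antagonist, at +0.08 ± 0.13 (-0.05 with the trends removed).

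None of the 12 tested output genes of the pathway passed even the unadjusted threshold, against 11.9% of all tested genes. Those farthest from 0 were the chemokines CXCL1 and CCL3, and the median of the list was 0.13. CXCL1, with 4 to 41 reads per library, was at +0.66 ± 0.34 (+0.37 without Control column 2, +0.48 with the trends removed). CCL3, with 11 to 38 reads per library, was at +0.55 ± 0.31 (+0.23 without APRIL column 3, +0.36 with the trends removed). Of 7 tested endogenous ligands, VCAN, a matrix proteoglycan that TLR2 can sense, was at -0.50 ± 0.20 (unadjusted p = 0.0287 in limma; -0.18 with the trends removed, -0.32 without APRIL column 3). S100A9, a calprotectin subunit that TLR4 can sense, was at +0.75 ± 0.41, with no overlap between the groups (wholly above, as for 3.62% of all tested genes). APRIL column 3 had 9.42 and the other APRIL libraries 7.27 to 7.47, and without it the change was +0.24; it was +0.34 with the trends removed.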

How the data were processed

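Poly(A)-selected, unstranded TruSeq RNA libraries of MonoMac 6 cells were analysed, 4 per group. Reads were aligned with TopHat2 2.0.13 to hg19, per the submitters' processing notes; how reads were counted, the annotation and any gene filter were not given in the sources used here. All deposited log2 values were scaled by TMM factors, per the file headers. The deposited table also holds the authors' p-value, ratio (linear fold), log10 of the p-value, and a signed score; of these only p and fold were printed.

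The log2 values were fitted with limma 3.58.1 (R 4.3.3; intensity trend, robust), two-sided, with Benjamini-Hochberg adjustment over the 11257 genes that reached a linear value of 1 in 4 or more libraries; 273 genes were left out. The fit was tested on simulated data with 200 changed genes. At the adjusted threshold limma recovered 51% of changes of 1 log2 and 90% of changes of 2 log2. Of the genes called there, 2.76% were unchanged. Smaller changes were not simulated. Whole reads were recovered for 11156 of 11530 genes (96.8%) as log2((n + 0.5) / whole divisor) plus a library constant, and for 0 of 500 genes under moved constants; voom (in limma, with median-of-ratios library sizes) ran on these as an alternative. Recovered depth was 941178 to 5349682 reads per library, and Poisson intervals cover counting error only. Transcript length and GC content came from GENCODE 29 and were removed per library with splines as an alternative. Other alternatives were library quality weights, filters, and leaving out libraries.

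Named genes are every member, and from each pathway list every gene called, every gene at an unadjusted p under 0.05 and the 2 largest changes; for each member the gene with the highest Pearson r was also taken, of which 1 is not reported here. The members and lists were chosen with earlier results of these data known.
An edgeR test planned on the recovered reads was not run, because the deposited unit is log2.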

Additional observations from a re-analysis of the deposited data

Results flagged for a closer look

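In 20 groups of 4 libraries (10 members in each group), a library standing far from the other 3 was found 2 times, and chance alone flags about 1 in 20 such groups. TLR6 in APRIL column 3 had a log2 value of 3.86, against 4.82 to 5.01 in the other APRIL libraries, a gap of 0.833 of the group's range. It rests on 4 reads, with an exact 95% Poisson interval of 1.09 to 10.24 reads. TOLLIP in Control column 1 had a log2 value of 8.63, against 9.22 to 9.25 in the other Control libraries, a gap of 0.946 of the group's range, and rests on 114 reads.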

How the results depend on the processing

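No gene and no member was called by limma as reported (1344 genes at an unadjusted p under 0.05) or by voom (1208). Library quality weights alone gave calls, 4 genes and no member. Unadjusted counts ran from 507 genes without Control column 1 to 2247 without APRIL column 2. Leaving out each library in turn turned the direction of 4 members, with ranges of -0.42 to 0.22 for LY96, -0.049 to 0.11 for IRAK4, -0.16 to 0.078 for TLR1 and -0.17 to 0.039 for TLR2. With the length and GC trends removed, TLR1 was at 0.04, TLR2 at 0.10 and IRAK1 at -0.030. With those trends taken from the transcript of median length, chosen after seeing the data, TLR1 was at 0.040, LY96 at 0.13, MYD88 at -0.0098 and IRAK1 at -0.068. TLR1 was at 0.024 with quality weights and at 0.019 without APRIL column 3 and Control column 1. The cause was not tested. TLR4, TLR6, CD14 and TOLLIP kept their direction in every alternative run. No member had an unadjusted p under 0.05 by voom, with the trends removed or without Control column 1. The planned edgeR alternative was not run. No paired analysis was possible because the columns carry no replicate number. Among the 9 members whose reads were recovered, depth limits TLR1, TLR6 and LY96 most.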

Other observations

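For 9 members the tested gene whose log2 values were most like its own over the 8 libraries was UVRAG for TLR6 (Pearson's r = 0.996), OSBPL11 for TLR4 (0.987), TMED10 for TLR1 (0.974) and SLC2A13 for TLR2 (0.954). It was TMX4 for LY96 (0.981), GALNS for MYD88 (0.979), SLC2A1 for IRAK1 (0.991), UBE2G1 for IRAK4 (0.958) and CDC42EP1 for TOLLIP (0.991). Each is the highest of the correlations with all tested genes over 8 libraries and is given as a description.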
